A study of Homo sapiens with 2 samples.

Results

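The genes described here are 10 enzymes and partner proteins of DNA methylation and of Polycomb repression, namely EZH2, SUZ12, EED, DNMT1, DNMT3A, DNMT3B, UHRF1, HELLS, TET1 and TET2. They were taken by name, and all 10 were found among the 19775 genes measured. Expression was measured in PC3, a human cell line of castration-resistant prostate cancer, and in PC3CR, a subline of it with acquired resistance to cabazitaxel (CBZ), a taxane that stabilises microtubules. Per the sample labels, PC3CR cells were grown and passaged with CBZ for 18 months and were examined after 3 months without the drug, while PC3 is the parental line. Both lines were kept in the same serum-containing medium. Total RNA of each line was hybridised to 1 array, so there were 2 arrays in all and no replicate of either line. PC3CR is a single subline, and the labels give no number of separate cultures. No difference below therefore has a replicate check, no test was possible, and precision is limited by the single array of each line.

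Each probe set, a group of probes for the same transcript, carries a log2 value made by the authors with the robust multichip average (RMA). A difference of 1 between PC3CR and PC3 on this log2 scale is a 2-fold difference, the threshold of the study's methods. The brightest probe set, by its mean of PC3 and PC3CR, stood for the gene, and all other probe sets of the 10 genes are shown as well. The arrays had a Pearson correlation of 0.942 across genes, and the median difference over all genes was -0.04. Because the measurement averages over a culture, fewer cells with a transcript and less of it per cell cannot be told apart. Of 6 epithelial markers all 6 were at or above the median of all genes on their brighter array. KRT8 and KRT18 differed by 0.07 and 0.67, whereas EPCAM, KRT7 and KRT19 were lower in PC3CR by at least 2-fold (-2.49, -1.86 and -3.28). Of 5 measured markers of prostate luminal cells, KLK2 and FOLH1 lay below the median of all genes on both arrays. KLK3 read 8.04 in PC3 and 8.08 in PC3CR, TMPRSS2 read 6.23 and 5.78, and HOXB13 was down by 2-fold or more, differing by -1.73 to reach 4.27 in PC3CR. Among 4 leukocyte markers the values in PC3CR ran from 2.95 for PTPRC to 5.58 for CD79A, and among 3 endothelial markers from 3.28 for CDH5 to 5.81 for PECAM1, and none of these differed by 2-fold. Of 4 fibroblast markers 1 was higher and 3 were lower by any amount, and 1 passed 2-fold, COL1A1, which read 8.69 and 6.56. Of the 5 probe sets of COL1A1 4 were lower, and their mean difference was -0.79, within 2-fold. The lower quartile of genes was 4.22 in PC3 and 4.10 in PC3CR.

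Methylation of cytosine in CpG dinucleotides is copied to the new strand after DNA replication. UHRF1 binds the hemimethylated DNA behind the replication fork and recruits DNMT1, the maintenance methyltransferase, and the chromatin remodeller HELLS opens nucleosomal DNA for it. DNMT3A and DNMT3B set new methyl groups, and the TET enzymes oxidise them as a step towards removal. The Polycomb repressive complex PRC2 sets the H3K27 methyl mark on histone H3 through EZH2, with SUZ12 and EED as the obligate core partners, and this mark keeps developmental genes silent. EZH2 is well known in prostate cancer, where its level is often raised in advanced disease.

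Of the 10 genes, 5 were up by 2-fold or more in PC3CR relative to PC3, none was down by 2-fold or more and 5 stayed within 2-fold. Over all genes, 9.84% were up by 2-fold or more and 6.72% down by 2-fold or more. The higher genes were UHRF1, HELLS, TET2, EED and EZH2. The median difference of the 10 genes was 0.88, with a range from -0.44 for TET1 to 2.23 for UHRF1. By direction alone, 7 were higher, 2 were lower and DNMT3B had the same value on both arrays, while 45.2% of all genes were higher. The 10 genes had 22 probe sets, of which 16 were higher in PC3CR, 4 were lower and 6 were up by 2-fold or more. Probe sets of the same gene are not independent, and HELLS alone gave 5 of the 16 and 2 of the 6. The shares of all genes above are per gene, and no share over all probe sets is given, so these counts only describe. On both arrays 12 of these probe sets lay below the median of all genes. When the probe sets of each gene were averaged, 2 of the 10 genes, UHRF1 and EZH2, were up by 2-fold or more, and each of these has a single probe set.

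**Figure D1:**
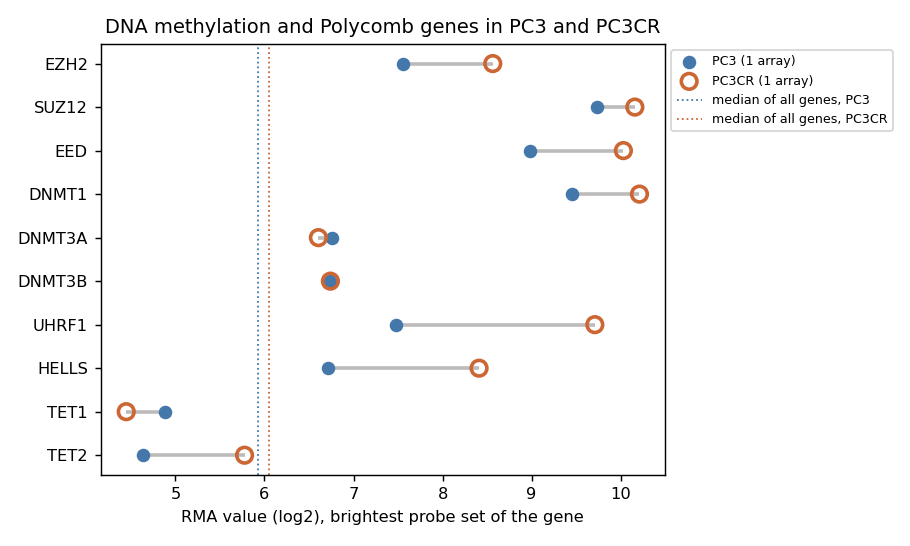
RMA values (log2, horizontal axis) of the brightest probe set of each of the 10 genes on the PC3 array (filled blue) and the PC3CR array (open orange), 1 array per line and no error bars. Dotted lines are the medians of all genes. UHRF1 has the longest step, from 7.48 to 9.71, the symbols of DNMT3B coincide at 6.74, and TET1 and TET2 lie below both medians.

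**Figure D2:**
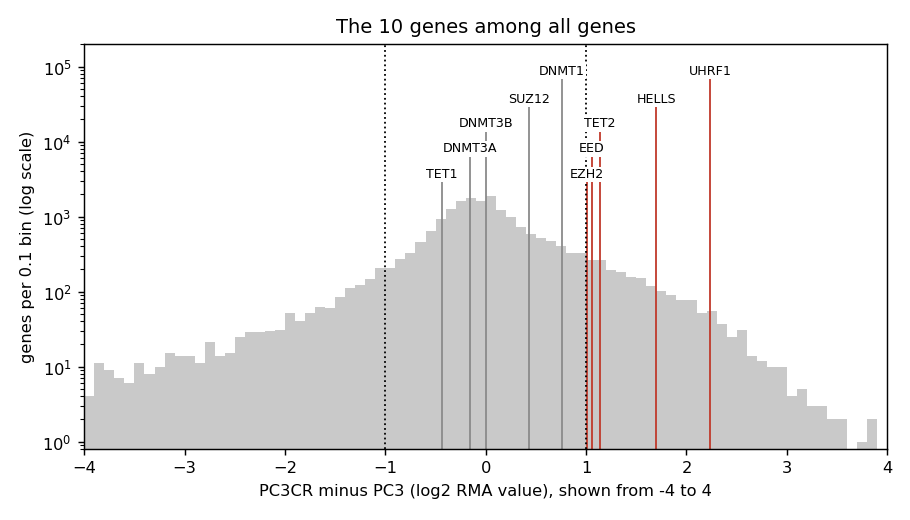
Distribution of PC3CR minus PC3 (log2 RMA value, horizontal axis) over all 19775 genes, in bins of 0.1 on a log vertical axis, with the 10 genes as vertical lines. Red lines are up by 2-fold or more in PC3CR, grey lines lie within 2-fold, and dotted lines mark 2-fold. UHRF1 at 2.23 is furthest to the right of the 10 and TET1 at -0.44 furthest to the left.

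UHRF1 and HELLS, of maintenance methylation, had the largest differences of the 10 genes. UHRF1, the reader that brings DNMT1 to newly replicated DNA, read 7.48 in PC3 and 9.71 in PC3CR. This is a difference of 2.23, or 4.70-fold, and 203 of all genes (1.03%) had a larger one. HELLS, the SNF2-type remodeller that helps methylation of packed DNA, read 6.71 in PC3 and 8.41 in PC3CR and so differed by 1.70 or 3.25-fold. All 5 probe sets of HELLS were higher in PC3CR, and 2 of them by at least 2-fold, with differences between 0.13 and 1.70. Their mean difference was 0.79, which is below 2-fold. DNMT1, which copies the methylation pattern, read 9.45 in PC3 and 10.21 in PC3CR on its single probe set, a difference of 0.76 or 1.69-fold and thus within 2-fold. Among the 10 genes, DNMT1 was the next below the 2-fold threshold and EZH2, at 1.01, the next above it.

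Promoter sequence, which the choice of the genes did not use, was also read. The 250 bases before each transcription start were searched on both strands for the E2F motif, spelled TTTCCCGC, TTTCGCGC, TTTGCCGC or TTTGGCGC, which is bound by the transcription factors that switch on genes for DNA replication. Of 35116 promoters in the RefSeq table (build GRCh38.p14), 2.79% held such letters. Among the 21 promoters of the 10 genes, which include alternative starts of the same gene, 4 held them, belonging to SUZ12, UHRF1 and HELLS. TET2, EED and EZH2, the other genes up by 2-fold or more, held none. The stretches are printed 5′ to 3′ on the strand of the gene to show the match, which is in capitals, and reverse complements start with GCG.
UHRF1, chr19:4909463-4909500, plus strand: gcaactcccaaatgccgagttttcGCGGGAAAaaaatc
UHRF1, chr19:4909960-4910015, plus strand: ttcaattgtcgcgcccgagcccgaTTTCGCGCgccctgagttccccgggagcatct
HELLS, chr10:94545688-94545787, plus strand: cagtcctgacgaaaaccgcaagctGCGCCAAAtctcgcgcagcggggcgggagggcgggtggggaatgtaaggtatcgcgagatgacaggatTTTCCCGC
SUZ12, chr17:31936794-31936849, plus strand: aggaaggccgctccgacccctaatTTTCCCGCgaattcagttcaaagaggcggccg
HELLS held 2 matches and UHRF1 held 1 before each of 2 of its 3 starts. SUZ12, with 1 match, differed by 0.43, against 2.23 for UHRF1 and 1.70 for HELLS. None of the 5 matches overlapped a CCAAT box (CCAAT), a GC box (GGGCGG) or a CHR element (TTTGAA) in these windows. CCAAT boxes were found in 9 of the 21 promoters and in 32.0% of all promoters, GC boxes in 12 of the 21 and in 42.6% of all, and CHR elements in 2 of the 21, of SUZ12 and TET2, and in 13.3% of all. The windows of the 10 genes held between 3 CpG dinucleotides, for DNMT3B, and 41, for 1 start of UHRF1, with a median of 21 against 11 over all promoters. Every spelling of the E2F motif contains a CpG, so the 2.79% of all promoters is not a like background for these genes. These matches describe letters and not binding, and the arrays do not measure it.

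The subunits of the PRC2 core were all higher in PC3CR. EZH2, the catalytic subunit, read 7.56 in PC3 and 8.56 in PC3CR and so differed by 1.01 or 2.01-fold, at the threshold itself. With loess centring or with quantile normalization it differed by 0.89 and 0.93, so that it came within 2-fold. EED, which reads the trimethyl mark and stimulates the enzyme, read 8.98 in PC3 and 10.03 in PC3CR and so differed by 1.05 or 2.08-fold. Its other probe set differed by 0.26, from 5.16 to 5.42, and the mean of both was 0.66. SUZ12, the scaffold of the complex, read 9.73 in PC3 and 10.16 in PC3CR and so differed by 0.43 or 1.35-fold. Its 2 other probe sets differed by 0.08 and 0.00 at values of at most 4.02, below the lower quartile of genes, and 1 probe set that the annotation gives to SUZ12 and a further symbol was left out. Thus all 3 core subunits had a positive difference on the brightest probe set, and EED and EZH2 passed 2-fold. Larger differences were found in 9.77% of all genes for EZH2, 9.13% for EED and 22.4% for SUZ12. EZH1, the paralogue that can replace EZH2 in PRC2 of non-dividing cells, read 7.97 in PC3 and 7.95 in PC3CR and so differed by -0.02, and differences over its 5 probe sets ran from -0.27 to 0.54.

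The enzymes of new methylation differed little. DNMT3A read 6.76 in PC3 and 6.61 in PC3CR and so differed by -0.16. All 3 of its probe sets were lower in PC3CR, by between -0.49 and -0.16, and none passed 2-fold. DNMT3B was at 6.74 on both arrays, with a difference of 0.00 on its single probe set. Exactly equal values were given to 1817 of 54613 probe sets, among them this one and 1 probe set of SUZ12. DNMT3L, the inactive partner that stimulates both enzymes in germ cells, read 4.35 in PC3 and 4.15 in PC3CR, below the median of all genes.

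The TET enzymes went in different directions, at low signal. TET2 read 4.64 in PC3 and 5.78 in PC3CR and so differed by 1.14 or 2.20-fold. PC3CR was higher on all 3 probe sets, by 0.36, 0.64 and 1.14, and their mean difference was 0.71. TET1 read 4.89 in PC3 and 4.45 in PC3CR and so differed by -0.44, while its other probe set differed by 0.15 at values of 2.71 and 2.86. TET1 and TET2 were the 2 of the 10 genes whose values lay below the median of all genes on both arrays (5.93 in PC3 and 6.05 in PC3CR). Differences at such low signal are uncertain in size. The other 8 genes lay above these medians on both arrays. TET3, the remaining enzyme of the family, read 6.45 in PC3 and 7.02 in PC3CR and so differed by 0.57, and 2 of its 3 probe sets were higher.

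**Figure D3:**
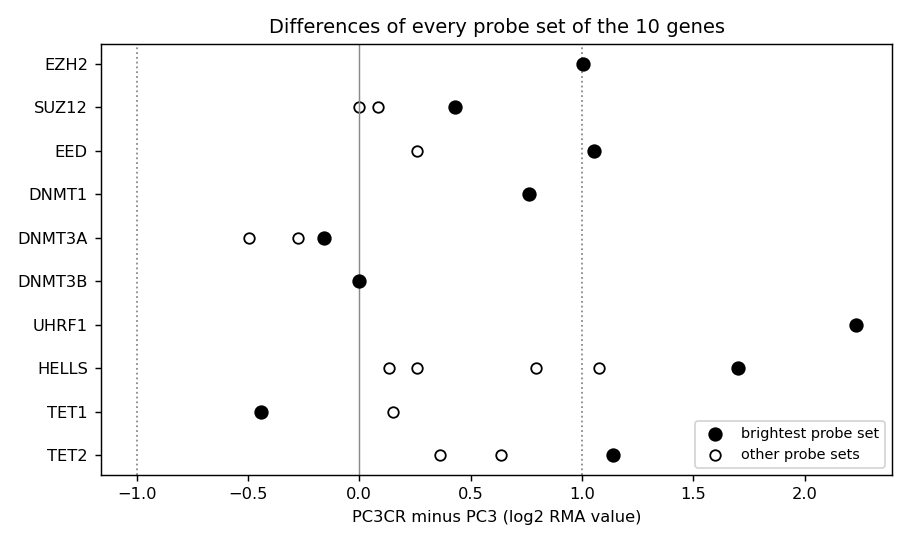
PC3CR minus PC3 (log2 RMA value, horizontal axis) for each of the 22 probe sets of the 10 genes. Filled points are the brightest probe set of each gene, open points the others, and dotted lines mark 2-fold. HELLS spreads from 0.13 to 1.70 and all 3 DNMT3A probe sets lie to the left of 0, while UHRF1, EZH2, DNMT1 and DNMT3B have 1 point each.

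Other genes of the same pathways were read from lists, with the 10 genes left out. Of 11 other PRC2 subunits none was past 2-fold upward or downward, with a median difference of 0.27 and a range from -0.87 to 0.80. By direction alone, 7 were higher and 4 were lower. With probe sets ending in _at without a further suffix, 1 of 10 was up by 2-fold or more. The member furthest from 0 was PHF1, a factor that helps PRC2 to bind chromatin. PHF1 read 10.11 in PC3 and 9.25 in PC3CR and so differed by -0.87, and its other probe set differed by -1.06. Of 22 measured subunits of PRC1, the Polycomb complex that ubiquitinates histone H2A, 1 was up by 2-fold or more and none was down that far, with a median of 0.10. This was PCGF5, of the variant complexes, which read 7.57 in PC3 and 9.04 in PC3CR and so differed by 1.47 with all 5 probe sets higher. When probe sets were averaged per gene, 4 PRC1 subunits were up by 2-fold or more.

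Of 14 measured genes that oppose Polycomb, 1 was up by 2-fold or more and 2 were down by 2-fold or more, with a median of -0.28. The median was -0.01 when probe sets were averaged per gene and -0.02 with suffix-free probe sets, where none was down that far. SMARCA4, the BRG1 ATPase of the SWI/SNF remodellers, read 9.79 in PC3 and 6.68 in PC3CR and so differed by -3.11, being 8.64-fold lower in PC3CR, while its probe sets had a mean difference of -1.75. Of its 9 probe sets 8 were lower, and the other differed by 0.15 at values of 3.37 and 3.51, near the low end of the array. KDM6A, which removes the H3K27 methyl mark, read 8.21 in PC3 and 6.99 in PC3CR and so differed by -1.22, and all 4 of its probe sets were lower, by between -1.52 and -0.60. The related demethylase gene KDM6B read 8.47 and 8.10 and so differed by -0.36 with all 5 probe sets lower. NSD2, a histone methyltransferase whose mark hinders PRC2, read 6.85 in PC3 and 8.94 in PC3CR and so differed by 2.09 with all 6 probe sets higher.

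On the side of DNA methylation, 9 other genes listed with it were all within 2-fold, with a median of 0.41. With suffix-free probe sets 1 of 8 was up by 2-fold or more. UHRF2, the paralogue of UHRF1, read 9.07 in PC3 and 9.48 in PC3CR and so differed by 0.41 against 2.23 for UHRF1. TRDMT1, the former DNMT2, which methylates transfer RNA, differed by 0.93, or by 0.39 over the average of its 3 probe sets. Of 13 genes for oxidation and removal of methylcytosine, none was up by 2-fold or more and 2 were down by 2-fold or more, with a median of 0.33. These were the stress genes GADD45A, at 12.65 and 10.67 (-1.98), and GADD45B, at 11.11 and 9.31 (-1.80). Of 6 methyl-CpG binding proteins 2 were up by 2-fold or more, with a median of 0.70. This median was 0.34 when probe sets were averaged per gene and -0.33 over the 5 genes that have a probe set ending in _at without a further suffix. ZBTB38, a zinc finger reader, read 8.42 in PC3 and 10.29 in PC3CR and so differed by 1.87 with all 5 probe sets higher and a mean difference of 1.24. MBD1 differed by 1.04, but 1 of its 5 probe sets differed by -0.84 and their mean was 0.35.

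Of 13 genes of H3K9 methylation and heterochromatin, 3 were up by 2-fold or more and none was down that far, with a median of 0.41. CBX5, which encodes heterochromatin protein HP1 alpha, was at 6.75 and 8.27 (1.52), the methyltransferase gene SUV39H2 at 6.75 and 8.02 (1.26), and TASOR, a subunit of the HUSH silencing complex, at 7.31 and 8.55 (1.25). When probe sets were averaged per gene, SUV39H2 alone of these 3 was past 2-fold, at 1.45. In the supply and use of methyl groups 3 of 12 measured genes were up by 2-fold or more, with a median of 0.28. These were the methionine synthase gene MTR at 1.54, MTAP, which salvages methionine, at 1.12, and NNMT, which spends methyl groups on nicotinamide, at 1.05. As the mean of their probe sets MTR differed by 1.99, NNMT by 0.93 and MTAP by 0.37.

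**Figure D4:**
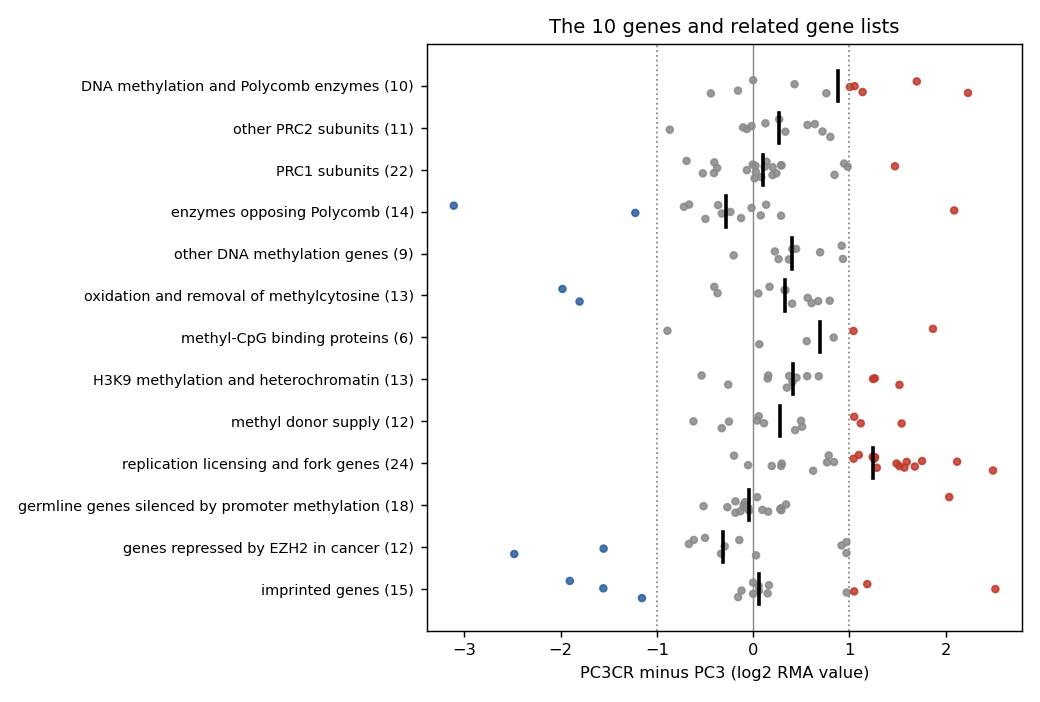
PC3CR minus PC3 (horizontal axis, log2 RMA values) for the 10 genes and for 12 related lists, 1 point per gene with the number measured in brackets and a random vertical offset. Colour marks genes past 2-fold, red upward and blue downward in PC3CR, and black bars are medians. The median of the 10 genes, 0.88, lies between those of the other chromatin lists and that of the replication list, 1.25.

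UHRF1, HELLS, DNMT1 and EZH2 are known to be made mainly in dividing cells, so genes of replication were set beside them. Of 24 genes of replication licensing and of the replication fork, 15 were up by 2-fold or more in PC3CR, none was down that far and 22 were higher by any amount, with a median of 1.25 and a range from -0.20 to 2.49. MCM10 read 4.90 in PC3 and 7.39 in PC3CR (2.49), POLE2, a subunit of DNA polymerase epsilon, read 7.19 and 9.31 (2.12), and MCM4, of the replicative helicase, differed by 1.76. PCNA, the sliding clamp that binds DNMT1, differed by 0.92. The part of cell division in the differences of the 10 genes was not tested.

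Genes that these marks are known to silence were also read. Of 18 measured germline genes that are usually silenced by promoter methylation in somatic cells, 17 stayed within 2-fold, with a median of -0.05, and all but 1 of the 18 lay below the median of all genes on their brighter array. The exception was STK31, which read 4.11 in PC3 and 6.15 in PC3CR and so differed by 2.04 on its single probe set. Of 12 measured genes known as repressed by EZH2 in cancer cells, none was up and 2 were down by 2-fold or more. By direction alone, 4 of the 12 were higher and 8 were lower. Over all genes, 45.2% were higher by any amount and 6.72% were down by 2-fold or more. The median of the 12 was -0.31, or -0.19 when probe sets were averaged per gene. Only 8 of the 12 lay at or above the median of all genes on their brighter array, with a median difference of -0.32. SLIT2, a secreted guidance protein, read 7.35 in PC3 and 4.86 in PC3CR and so differed by -2.48 with all 3 probe sets lower, by up to -3.92. PLAAT4, a retinoid-responsive gene, read 6.27 and 4.72 and so differed by -1.55 on its single probe set. CDKN2A (0.97), RUNX3 (0.97) and CDKN2B (0.92) were higher in PC3CR, each just within 2-fold and with all of its probe sets higher. After quantile normalization or with suffix-free probe sets 1 gene of this list, and after median centring 2 genes, were up by 2-fold or more. Of 15 measured imprinted genes 3 were up by 2-fold or more and 3 down by 2-fold or more, with a median of 0.06. Only 7 of the 15 lay at or above the median of all genes on their brighter array. Of these 7, 2 were up and 3 down by 2-fold or more, with a median of -0.16. PLAGL1, a zinc finger growth regulator, read 5.26 in PC3 and 7.78 in PC3CR (2.52) with all 3 probe sets higher, the receptor adaptor GRB10 read 9.67 and 7.77 (-1.91), and the antisense RNA KCNQ1OT1 read 6.24 and 4.68 (-1.56). All 4 probe sets of GRB10 were lower, with a mean of -1.10, and its suffix-free probe set differed by -0.31, within 2-fold. The arrays measure neither DNA methylation nor histone marks, and whether these genes follow the enzymes was not tested.

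The position of the genes was described by the 5 measured genes on each side in RefSeq gene order. For UHRF1 on chromosome 19, the 10 neighbours had a median of -0.16 and a highest difference of 0.43, and DPP9 was furthest from 0 at -1.01. For HELLS on chromosome 10 they had a median of -0.12 and a highest difference of 0.78, with PDLIM1 furthest at -0.80. EZH2 on chromosome 7 and DNMT1 on chromosome 19 also exceeded all 10 of their neighbours, whose medians were -0.20 and -0.20. The neighbour of EZH2 furthest from 0 was CUL1, a ubiquitin ligase scaffold, at 0.60. Around EED on chromosome 11 the median was 0.32, and PRSS23, a serine protease gene, exceeded EED at 1.77. Around TET2 on chromosome 4, 3 of 10 neighbours were up by 2-fold or more, each by more than TET2, and the furthest was the kinetochore motor gene CENPE at 1.80, while the median was 0.01.

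**Figure D5:**
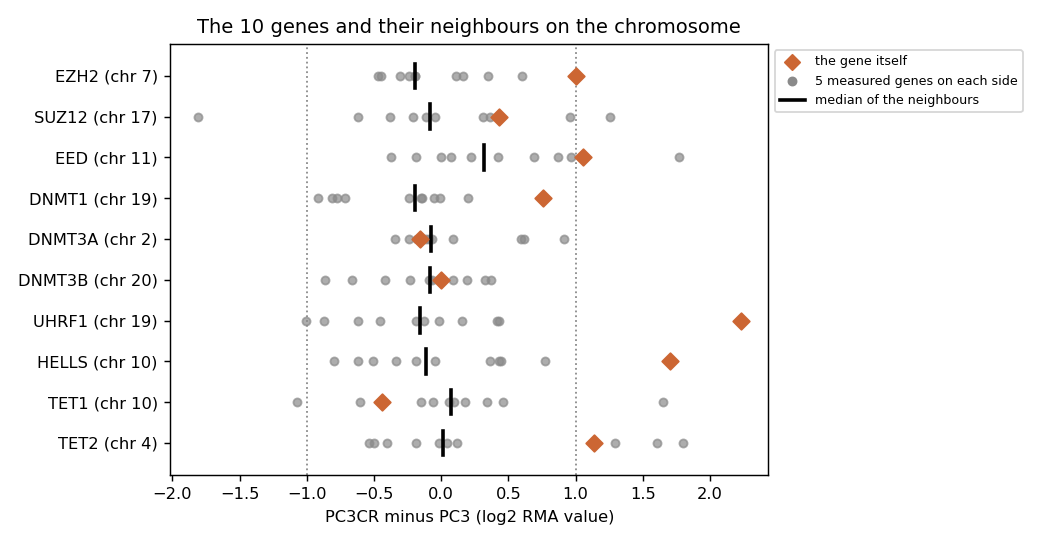
PC3CR minus PC3 (log2 RMA value, horizontal axis) of each of the 10 genes (orange diamonds) and of the 5 measured genes on each side of it on the chromosome (grey points, black bars for their medians), with dotted lines at 2-fold. The diamonds of EZH2, DNMT1, UHRF1 and HELLS lie to the right of all of their neighbours.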

How the data were processed

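The deposited values are log2 and were made by the authors with RMA. Affymetrix Expression Console 1.4 and Transcriptome Analysis Console 3.1 are named in the submitters' processing notes. RMA is meant to make the distributions of both arrays alike. Over genes a difference remained, with medians of 5.93 in PC3 and 6.05 in PC3CR and lower quartiles of 4.22 and 4.10. Identifiers belong to the U133 Plus array, whereas the methods name a Human Gene ST array. Of 54613 probe sets, 41091 had 1 gene symbol in the platform annotation, 1801 had several and 11721 were unnamed here, and symbols were updated through Entrez IDs for 41037. Counts used the 2-fold rule with no floor on signal. With 1 array per line no p-value was computed. The genes and the 12 lists were chosen with earlier results of these data known. Named genes were the 10 genes, up to 3 genes per list furthest from 0 past 2-fold and at or above the median of all genes (otherwise the 1 furthest), close paralogues, KDM6A, KDM6B and the neighbour furthest from 0 of each gene past 2-fold. PCNA, CDKN2A, RUNX3 and CDKN2B were named after their values were seen. The floor on signal asked that the brighter array lie at or above that median. Alternatives were 3 other choices of probe set, that floor, median, loess (span 0.4) and quantile scaling, and thresholds of 1.5-fold and 3-fold. The procedure was tested on simulated data. Values were computed in Python 3.11.15 with statsmodels 0.14.6, pandas 2.3.3 and numpy 2.4.6, and plotted with matplotlib 3.10.9.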

Additional observations from a re-analysis of the deposited data

How the results depend on the processing

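With the mean of all probe sets, 2 of the 10 genes were at least 2-fold higher, against 6.92% of all genes, and their median difference was 0.69. With the brightest probe set whose identifier ends in _at without a further suffix, which left 7 of the 10 genes, 3 were at least 2-fold higher, against 9.92%, and the median was 0.43. At a 3-fold threshold 2 genes, UHRF1 and HELLS, were higher, against 3.82%. With the floor on signal, which leaves out TET1 and TET2, 4 of 8 genes were higher, against 15.6%. At a 1.5-fold threshold 6 of 10 were higher, against 18.0% of all genes. Under the remaining alternatives 4 or 5 of 10 were at least 2-fold higher, against between 9.02% and 10.6%. Under these remaining alternatives and the floor the median lay between 0.82 and 0.92. None of the 10 was past the threshold on the lower side under any alternative. Among the named genes outside the 10, the suffix-free probe set turned the direction of SMARCA4 (0.15) and MBD1 (-0.84), which have other probe sets of brighter signal. It brought KDM6A (-0.60) and TASOR (0.16) within 2-fold, and among the 10 EED (0.26). Of 65 alternative values of single genes among the 10, 13 lay more than 0.1 from the value given above and 52 did not. List medians near 0 changed sign. That of PRC1 became negative with loess centring (-0.0023), and that of imprinted genes with suffix-free probe sets (-0.06) or the floor (-0.16). The germline median became positive with loess centring (0.05), quantile normalization (0.0091) or the floor (2.04), which left 1 gene. The median of oxidation and removal fell to 0.20 with averaged probe sets, loess or quantile scaling. No paired analysis was possible because each cell line has 1 array. Low signal limits the values of TET1, TET2 and the germline genes. It also limits those imprinted genes and genes repressed by EZH2 that lay below the median of all genes.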
